A study of Bos taurus with 36 samples.

Results

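The red cell lineage was followed through the bovine fetus and its dam by 10 of its genes, GATA1, KLF1, TAL1, EPOR, ALAS2, AHSP, EPB42, SLC4A1, ANK1 and TFRC. They are the rows of the count table whose Entrez identifier carries one of these symbols in the bovine RefSeq annotation, 10 of the 35092 genes in the table. Their Entrez identifiers are 516066 for GATA1, 784295 for KLF1, 518657 for TAL1, 281144 for EPOR, 511791 for ALAS2, 338381 for AHSP, 281754 for EPB42, 286817 for SLC4A1, 353108 for ANK1 and 504698 for TFRC. RNA was sequenced from the liver, heart and gonads of 10 male fetuses at Day 42 of gestation and from whole blood of the heifers that carried them, in 36 libraries. All fetuses grew from embryos that were 7 days old at transfer. The recipient heifer that carried a fetus is called its dam here, which says nothing of genetic relation. In the synchronous group, ET_D7, the recipient heifer was on Day 7 of her cycle, and in the asynchronous group, ET_D9, on Day 9, and each group gave 5 fetuses. The fetuses are numbered here from 1, the lightest at 1.253 g, to 10, the heaviest at 1.69 g. The 5 ET_D7 fetuses weighed at most 1.37 g and the 5 ET_D9 fetuses at least 1.396 g, so transfer group and weight cannot be told apart. The liver was measured in 8 fetuses (5 ET_D7 and 3 ET_D9, without fetuses 6 and 7), the heart in 9 (without fetus 7), the gonads in 9 (without fetus 2) and maternal blood in 10.

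In a mammalian embryo the first red cells arise in the yolk sac and enter the circulation, and the fetal liver then becomes the main site at which definitive red cells are made. Committed erythroid progenitors switch on a small set of transcription factors, depend on erythropoietin for survival, take up iron through the transferrin receptor, build heme and globin, and assemble a spectrin-based membrane skeleton that is tied to the lipid bilayer by adaptor and anion exchanger proteins. The 10 genes cover these steps. GATA1, KLF1 and TAL1 are the transcription factors, EPOR is the erythropoietin receptor, ALAS2 is the erythroid enzyme of the first step of heme synthesis, AHSP is a chaperone that binds free alpha-globin, SLC4A1 is the band 3 anion exchanger, EPB42 and ANK1 are protein 4.2 and ankyrin-1, which attach it to the skeleton, and TFRC is transferrin receptor 1.

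An organ library held 18231089 to 39649051 counts and a blood library 26602415 to 40812354. The mitochondrial share of a library was 16.3% to 36.8% in the liver, 17.1% to 57.3% in the heart, 3.31% to 7.23% in the gonads and 2.14% to 3.29% in blood. The liver libraries of fetuses 1 and 2 stood apart from all others by their likeness. Their counts differed by less than the sampling noise, with a median chi-square over 16065 genes of 0.260 of its expected value, whereas the 144 other pairs of libraries of one tissue gave 1.78 to 158. They were therefore counted as 1 sample in every mean ± SD, so that n = 7 in the liver, while the fitted tests kept all 8 liver libraries and were repeated with the 2 libraries counted once. Another 333 genes were either at 2 counts or fewer or at 300 or more in each liver library, where the hearts gave 1 such gene, the gonads 1 and blood 2, and none of the 10 erythroid genes was among them. Hepatocyte markers (8 genes such as ALB and AFP) summed to at least 32823 CPM (read counts scaled to a common library size) in every liver library and at most 55.3 CPM in every heart or gonad library, and cardiomyocyte markers to at least 26952 CPM in every heart library. In the gonads, the 11 markers of gonad and mesonephros summed to 292 to 393 CPM. In blood, the libraries of the dams of fetuses 2 and 5 held 3359 and 1109 CPM of cardiomyocyte markers, against less than 20 CPM in the other 8. With edgeR, leaving either dam out gave no call among the 9 genes tested in blood for weight or transfer group, as with all 10 dams.

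All 10 genes were highest in the liver (the plot of levels by tissue). Levels are given as CPM after TMM normalisation (a scaling of library sizes by edgeR that allows for differences in composition), once over the 26 organ libraries together and once over the 10 blood libraries. Each of the 8 liver libraries stood above each of the 18 heart and gonad libraries for all 10 genes, a pattern shown by 9.72% of the 25095 genes with a count in any organ. With edgeR's quasi-likelihood test and Benjamini-Hochberg adjustment over these genes, all 10 were higher in the liver than in the heart (30.7% of all genes were) and all 10 higher than in the gonads (33.6% of all genes), each by more than 1 on the log2 scale (24.1% and 27.4% of all genes). All of them are members of the study's own list of liver genes, which was drawn from these same samples, so the counts are not independent evidence of the direction. The median log2 fold change of the 10 genes was 4.34 over the heart and 5.94 over the gonads, beside a median of 0 over all genes in both comparisons. In whole tissue, more erythroid cells and more RNA of these genes per cell cannot be told apart.

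**Figure D1:**
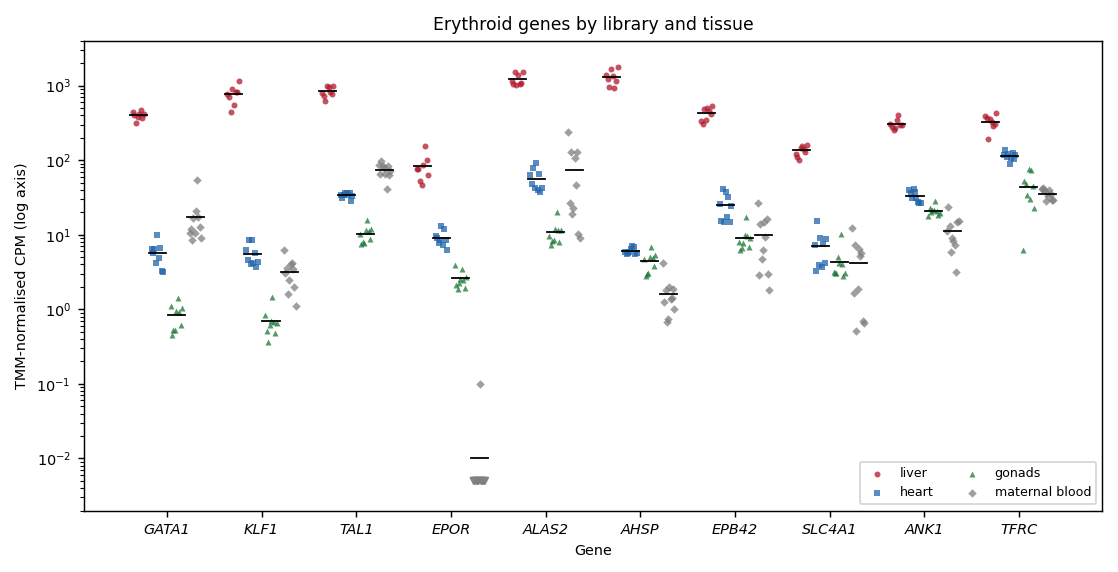
TMM-normalised CPM (log axis) of the 10 genes in every library, with red circles for liver, blue squares for heart, green triangles for gonads and grey diamonds for maternal blood, and black bars for the mean (liver libraries of fetuses 1 and 2 counted once). Liver values sit above heart and gonad values for every gene, and the open triangles under EPOR mark the 9 blood libraries with 0 counts, which have no place on a log axis.

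The transcription factors showed wide gaps between liver and the other organs. GATA1, the zinc finger factor at the centre of the erythroid program, ran from 311 to 469 CPM in the liver (median 409), from 3.18 to 9.97 CPM in the heart (median 5.65) and from 0.456 to 1.41 CPM in the gonads (median 0.919). No value of one organ reached the range of another. Its mean of 399 ± 50.2 CPM in the liver (SD, n = 7) was 70.8-fold that of the heart, or 6.16 on the log2 scale in the fit (standard error 0.241, adjusted p = 1.7e-18), and 475-fold that of the gonads, or 8.90 (standard error 0.272, adjusted p = 9.7e-21). KLF1, which activates the beta-globin locus and many late erythroid genes, ran from 444 to 1162 CPM in the liver (median 798), from 3.70 to 8.40 CPM in the heart (median 4.56) and from 0.361 to 1.47 CPM in the gonads (median 0.660). The gap between liver and gonads was the widest of the 10 genes, 1109-fold in the means and 10.11 on the log2 scale (standard error 0.307, adjusted p = 8.3e-21). TAL1, a basic helix-loop-helix factor that endothelial cells also use, ran from 629 to 991 CPM in the liver (median 809), from 28.0 to 36.3 CPM in the heart (median 34.5) and from 7.49 to 15.8 CPM in the gonads (median 10.3). Its heart values were the least spread of the 10 genes apart from AHSP, and its fold over the heart was 25.0 in the means and 4.63 on the log2 scale (standard error 0.147).

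EPOR, the receptor that transmits the erythropoietin signal, was the most variable of the 10 genes in the liver. It ran from 46.1 CPM in fetus 4 to 157 CPM in fetus 8 (median 76.3), against 6.23 to 13.2 CPM in the heart (median 8.58) and 1.89 to 3.94 CPM in the gonads (median 2.46). The organs did not overlap. The liver mean of 83.1 ± 37.3 CPM (SD, n = 7) was 9.12-fold that of the heart (log2 fold change 3.18, standard error 0.213, adjusted p = 2.4e-13) and 32.1-fold that of the gonads (4.99, standard error 0.231).

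ALAS2, whose product commits glycine and succinyl-CoA to heme, ran from 1027 to 1529 CPM in the liver (median 1117), from 36.9 to 90.7 CPM in the heart (median 47.9) and from 7.32 to 20.3 CPM in the gonads (median 9.59). The liver and heart means of 1245 ± 225 CPM (SD, n = 7) and 56.5 ± 19.2 CPM (SD, n = 9) were 22.0-fold apart, and the fitted log2 fold change was 4.44 (standard error 0.222, adjusted p = 3.7e-16). AHSP ran from 932 to 1779.9 CPM in the liver (median 1298), from 5.44 to 7.02 CPM in the heart (median 5.83) and from 2.83 to 6.95 CPM in the gonads (median 4.70). It gave the widest gap between liver and heart, 216-fold in the means and 7.75 on the log2 scale (standard error 0.208, adjusted p = 1.5e-21), and its heart and gonad values overlapped.

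The liver means of the membrane genes were 17.5-fold (EPB42), 19.3-fold (SLC4A1) and 9.33-fold (ANK1) those of the heart. EPB42 ran from 303 to 538 CPM in the liver (median 434), from 14.8 to 41.2 CPM in the heart (median 24.5) and from 6.16 to 17.2 CPM in the gonads (median 8.10), and its log2 fold change was 4.08 over the heart (standard error 0.240) and 5.54 over the gonads (standard error 0.257). SLC4A1 ran from 102 to 159 CPM in the liver (median 134), from 3.24 to 15.1 CPM in the heart (median 7.30) and from 2.80 to 10.1 CPM in the gonads (median 3.19), with log2 fold changes of 4.24 (standard error 0.297) and 4.95 (standard error 0.306). ANK1, of which striated muscle makes its own short form, ran from 257 to 398 CPM in the liver (median 296), from 26.5 to 40.6 CPM in the heart (median 31.1) and up to 28.2 CPM in the gonads (median 20.7), with log2 fold changes of 3.21 (standard error 0.117) and 3.86 (standard error 0.120). For these 3 genes the lowest liver library exceeded the highest heart library by 7.35-fold for EPB42, 6.73-fold for SLC4A1 and 6.34-fold for ANK1.

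TFRC, which most dividing cells use to import iron, was the least liver-restricted of the 10 genes. It ran from 193 to 427 CPM in the liver (median 337), from 90.0 to 136 CPM in the heart (median 116) and from 6.32 to 75.2 CPM in the gonads (median 45.3). The organs did not overlap, yet the lowest liver library was only 1.42-fold the highest heart library. The log2 fold change was 1.53 over the heart (standard error 0.272, adjusted p = 2.1e-05) and 2.93 over the gonads (standard error 0.284, adjusted p = 5e-10). TFRC is also in the study's list of gonad genes that follow fetal weight, again drawn from these samples.

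**Figure D2:**
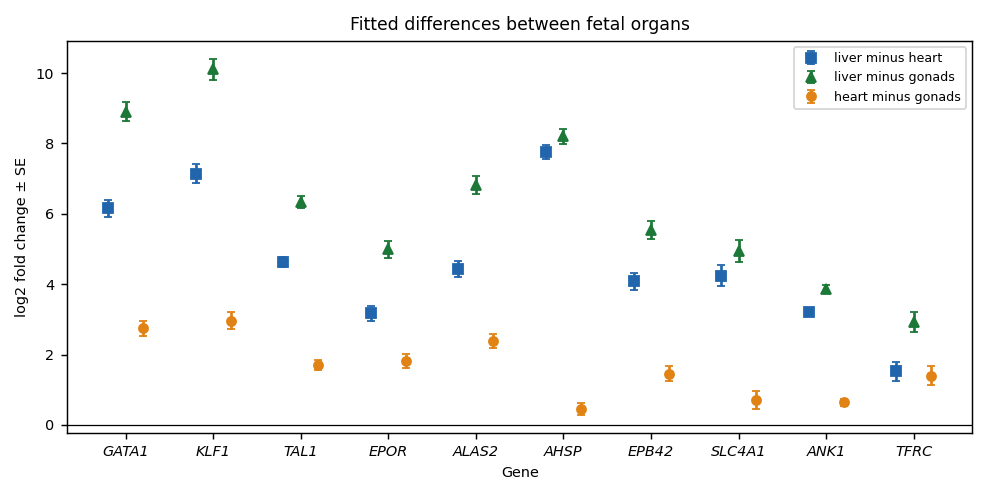
Fitted log2 fold changes with standard errors (edgeR's quasi-likelihood model over 26 organ libraries) for liver minus heart (blue squares), liver minus gonads (green triangles) and heart minus gonads (orange circles). Liver minus heart runs from 1.53 for TFRC to 7.75 for AHSP, liver minus gonads from 2.93 for TFRC to 10.11 for KLF1, and heart minus gonads from 0.45 for AHSP to 2.97 for KLF1.

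Between the lower organs, all 10 genes were higher in the heart than in the gonads, against 23.5% of all genes tested, and 46.6% of all genes differed in either direction. The median log2 fold change was 1.58 for the 10 genes and −0.08 for all genes. KLF1 (2.97, standard error 0.238), GATA1 (2.74, standard error 0.218) and ALAS2 (2.39, standard error 0.202) differed most, and 7 of the 10 genes differed by more than 1 on the log2 scale. The share of all genes beyond 1 in this comparison is not given here, so the 7 are not set against it. Every heart library stood above every gonad library for GATA1, KLF1, TAL1, EPOR, ALAS2 and TFRC, as for 11.6% of all genes, whereas the organs overlapped for AHSP, EPB42, SLC4A1 and ANK1. The differences of AHSP (0.45, standard error 0.160, adjusted p = 0.0215) and SLC4A1 (0.71, standard error 0.265, adjusted p = 0.0286) were small and depended on single fetuses. Without fetus 3, 4 or 5 in turn, AHSP gave adjusted p = 0.0931, 0.0514 and 0.0708. Without fetus 1, 3, 5, 8 or 10, SLC4A1 gave adjusted p = 0.0683, 0.246, 0.0585, 0.0621 and 0.0868, and its log2 fold change was 0.37 without fetus 3.

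In maternal blood, which was prepared with another kit and is not compared with the organs by any test, 9 of the 10 genes were read in every library. TAL1 ran from 40.9 to 97.7 CPM (median 75.7), ALAS2 from 8.92 to 241 CPM (median 36.3) and TFRC from 28.1 to 42.2 CPM (median 35.5). GATA1 ran from 8.45 to 54.8 CPM (median 12.3), ANK1 from 3.15 to 23.8 CPM, EPB42 from 1.82 to 26.3 CPM, SLC4A1 from 0.518 to 12.1 CPM, KLF1 from 1.11 to 6.27 CPM and AHSP from 0.666 to 4.16 CPM. EPOR had 0 counts in 9 of the 10 libraries and 4 counts in that of the dam of fetus 6. A count of 0 allows up to 3 counts, or 0.0735 to 0.113 CPM at the depths of those 9 libraries, by counting error alone. ANK1 and TFRC were highest in the dam of fetus 2, one of the pair of libraries with a high sum of cardiomyocyte markers. NKX2-5, 1 of these markers, was at 0 in every blood library. The part of the markers' source in her 23.8 CPM of ANK1 was not tested.

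The rest of the red cell program was read from lists of genes with known roles. The background is the 23.1% of all genes that exceeded both heart and gonads in the liver. By the same rule, 4912 of the 25095 genes were lower than in both. Among 20 further transcriptional regulators of erythropoiesis, 15 exceeded both, 1 was lower than in both and 4 were neither. The highest by liver CPM, a measure that also depends on gene length, were SOX6, a repressor of embryonic globin genes, at 2038 CPM (log2 fold change over the heart 5.58, standard error 0.20), HEMGN at 379 CPM (4.29, standard error 0.29), NFE2 at 300 CPM (4.77, standard error 0.19) and LDB1, the bridging partner of the TAL1 and GATA1 complex, at 228 CPM (0.59, standard error 0.10). FLI1, a factor of megakaryocytes and endothelium, was the one lower in the liver, by 1.02 on the log2 scale against the heart and 0.65 against the gonads. All 8 genes of heme synthesis other than ALAS2 were tested and 7 exceeded both organs. ALAD had 1148 CPM, UROD 423 CPM and UROS 401 CPM, and on the log2 scale UROD exceeded the heart by 4.12 (standard error 0.18) and UROS by 4.29 (standard error 0.25). ALAS1, the form of the first enzyme used outside the red cell lineage, was the exception, with a log2 fold change of −0.31 against the heart (standard error 0.12) and 0.59 against the gonads (standard error 0.12).

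Among 18 genes of iron handling, 14 exceeded both organs and none was lower than in both. The ferritin chains FTH1 and FTL exceeded the heart by 2.19 (standard error 0.17) and 1.75 (standard error 0.16) on the log2 scale, the mitochondrial iron importer SLC25A37 by 2.98 (standard error 0.13) and transferrin (TF) by 8.78 (standard error 0.50). Hepatocytes also make several of these proteins, TF and hepcidin (HAMP) among them. Of 26 other genes of the red cell membrane, 15 were higher and 3 lower (TPM1, TPM3 and BCAM), with the spectrin chain SPTB at 1722 CPM, the blood group protein KEL and protein 4.1 (EPB41) among the highest by CPM. On the log2 scale SPTB exceeded the heart by 5.28 (standard error 0.18) and KEL by 5.06 (standard error 0.25). Of 13 red cell enzymes and related genes, 9 were higher and ALOX15 was lower, among them the peroxiredoxin PRDX2 (1.38 over the heart on the log2 scale, standard error 0.15), BLVRB (4.66, standard error 0.15), the pyruvate kinase PKLR (4.76, standard error 0.24) and UBE2O, which exceeded the gonads by 2.44 (standard error 0.17). Of 16 genes around EPOR signalling, 8 were higher and GAB1 was lower, with the survival factor BCL2L1, the kinase PIM1, the feedback inhibitor CISH and the hormone erythroferrone (ERFE) the highest by CPM. ERFE exceeded the heart by 5.03 on the log2 scale (standard error 0.21).

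Globin genes moved with the erythroid genes between organs in part. Of 10 globin genes, 8 exceeded both organs in the liver by the fit, while the embryonic HBZ (log2 fold change −0.38 against the heart, standard error 0.39) and HBE1 (−2.09, standard error 0.47) did not. HBE2, counted among the 8, was read at 61.5 and 139 CPM in the livers of fetuses 3 and 5. In the other livers it had at most 0.0654 CPM, and it was among the 333 genes that were on or off by liver library. How reads shared by similar globin genes were counted is not given in the sources used here, and this holds for the globin values below as well. Markers of some other blood cells were also higher in the liver. All 8 megakaryocyte markers, all 6 measured neutrophil markers and 7 of 8 macrophage markers were higher than in both organs. So were all 8 hepatocyte markers. The shares were 2 of 5 for mast cell and basophil markers, 2 of 6 for progenitor markers and 1 of 7 for lymphocyte markers. With so few genes these last shares are not set apart from the 23.1% of all genes. The progenitor marker MEIS1 was lower than in both. Of 7 endothelial markers, none was higher and 6 were lower, and of 11 markers of gonad and mesonephros 1 was higher and 3 were lower. Of 7 cardiomyocyte markers none was higher in the liver and 1 was lower than in both. The megakaryocyte markers, which share GATA1 and TAL1 with the red cell lineage, summed to 408 to 640 CPM in the liver, 38.7 to 67.0 CPM in the heart and 8.05 to 16.5 CPM in the gonads, in the same order as the erythroid genes, and their part in the levels of GATA1 and TAL1 was not tested.

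Genes were ranked by how closely they followed the mean standardised log2(CPM + 1) of the 10 genes over the 26 organ libraries. Among the closest of 16094 genes were DMTN (dematin, r = 0.997), TREML2, NFE2, PKLR, ERMAP, STEAP3, MARCHF2, ANKRD9 and BLVRB, all with r of at least 0.994. These values reflect the organ differences that all libraries share and are a description. Of the 10 genes themselves, 9 had r of 0.976 to 0.997, and TFRC had 0.868, which placed it at rank 1951 of all genes. Over the 8 liver libraries alone, with the near-identical pair as separate points, the closest genes were MRPS15 (r = 0.987), YWHAE, SNF8, UBTF and TCAIM, while the 10 genes themselves followed their own mean with r from 0.127 (ALAS2) to 0.919 (SLC4A1).

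Within the liver, 8 of the 10 genes had a smaller spread between fetuses than the median gene, a description without a test. The comparison was not matched for level, and the 10 genes had liver means of 83.1 to 1305 CPM. The SD of log2(CPM + 1) over 7 samples ranged from 0.19 for GATA1 to 0.59 for EPOR with a median of 0.27, against a median of 0.42 over 16094 genes with a mean of at least 1 CPM. Only EPOR and KLF1 (0.46) exceeded that median. In the other tissues the median spread of the genes lay above that of all genes. The median SD was 0.34 for the 10 genes in the heart against 0.29 for all genes, 0.38 for the 8 genes with at least 1 CPM in the gonads against 0.24, and 0.73 for 9 genes in maternal blood against 0.23. ALAS2 in blood had an SD of 1.62, above 99.5% of 13708 genes.

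The fetus at the top of the range recurred across genes, which were read from the same libraries and are not independent. The share of all genes that are highest in each library is not given here. In the liver, fetus 10, the heaviest, was highest for 7 of the 10 genes (KLF1, TAL1, ALAS2, AHSP, EPB42, SLC4A1 and TFRC), fetus 8 was highest for GATA1, EPOR and ANK1, and fetus 3 was lowest for 6. The library of fetus 10 also had the lowest hepatocyte marker sum of the 8 (32823 CPM, against 35680 to 64033 CPM in the others), the highest globin sum (17468 CPM) and the smallest total count, and the part of these in its values was not tested. In the gonads, fetus 7 was highest for 8 of the 10 genes, and the same library had the highest globin sum (1116 CPM against at most 962 CPM), the highest megakaryocyte marker sum and the highest mitochondrial share (7.23%). In the heart, fetus 5 was highest for 4 genes and fetus 9 lowest for 5. The blood of the dam of fetus 1 was highest for 5 of the 9 genes ranked.

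Fetal weight was the axis along which the study arranged its samples. In the liver, a natural spline of weight with 3 degrees of freedom called 0 of the 10 genes at an adjusted p under 0.05, where 1.81% of 16605 genes were called, and 1 of the 10, EPOR, at an unadjusted p (0.0293), where 17.9% of genes were. EPOR had an adjusted p of 0.234 with edgeR and 0.0238 with DESeq2, whose spline called 10.7% of all genes. A linear term called 0 of the 10 genes (2.23% of all genes), and 0 at an unadjusted p under 0.05 (17.2% of all genes) with edgeR, and DESeq2 also called 0. For the linear term and the transfer group, the DESeq2 shares of all genes are not given here, in the liver or the other tissues. The liver slopes ran from −0.01 to 0.12 on the log2 scale per 0.1 g, with a median of 0.01 against −0.01 for all genes. The largest were those of EPOR (0.12, standard error 0.091), KLF1 (0.11, standard error 0.073) and EPB42 (0.08, standard error 0.063), all within 2 standard errors of 0. With transfer group as a covariate the slope of EPOR was −0.43 (standard error 0.244). EPOR did not change steadily, since fetus 8 had 157 CPM, fetus 10, the heaviest, 64.1 CPM and the 5 lighter ones 46.1 to 85.6 CPM (the plot of liver levels by weight). GATA1 held between 311 and 469 CPM over the whole range of weights, with a slope of −0.01 (standard error 0.042).

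**Figure D3:**
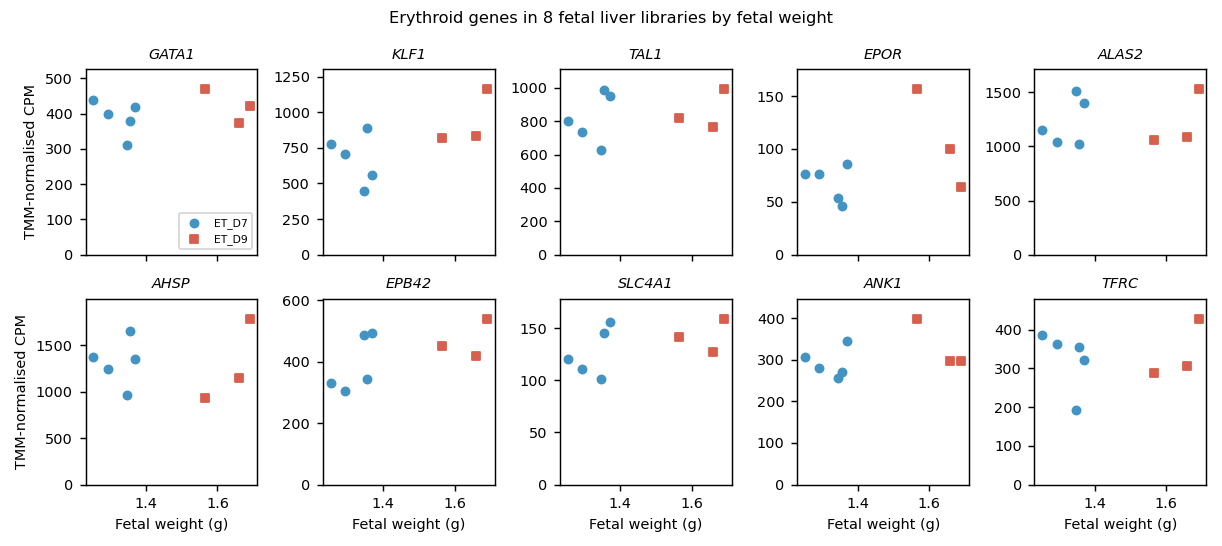
TMM-normalised CPM of each of the 10 genes in 8 liver libraries against fetal weight in grams, with blue circles for ET_D7 and red squares for ET_D9 fetuses, each axis of CPM starting at 0. The lightest 2 fetuses are the near-identical libraries, fetus 10 at 1.69 g is highest for 7 genes, and EPOR falls from 157 to 64.1 CPM over the 3 heaviest fetuses.

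The same holds for transfer group, which is tied to weight. Between the 3 ET_D9 and 5 ET_D7 livers, 0 of the 10 genes were called (4.14% of all genes), and 0 passed an unadjusted p under 0.05 (17.4% of all genes), with edgeR, and DESeq2 also called 0. The largest differences were those of EPOR, 0.53 higher in ET_D9 on the log2 scale (standard error 0.262, adjusted p = 0.341), and KLF1, 0.36 higher (standard error 0.250, adjusted p = 0.526). Without fetus 8 the difference of EPOR was 0.26, and without fetus 10 that of KLF1 was 0.18. Among the 16 genes around EPOR, EPO itself, the hormone ligand, was called in the liver and fell with weight by 0.39 per 0.1 g on the log2 scale (standard error 0.082, adjusted p = 0.047), from 13.7 CPM in fetus 1 to 4.18 CPM in fetus 10. With the near-identical libraries of fetuses 1 and 2, which had its highest values, counted once, the call was lost (slope −0.37, adjusted p = 0.139). It was also lost without any 1 of fetuses 1, 2, 5, 8, 9 and 10 (adjusted p = 0.0742 to 0.253) and with transfer group as a covariate (−0.45, standard error 0.275, adjusted p = 0.689). EPO is named here after its values were seen. So are the globin genes, of which 9 were tested in the liver. The spline called 3 of them, HBZ, HBE1 and HBE4 (1.81% of all genes were called), and the linear term 0 (2.23% of all genes). Between transfer groups 1 was called, HBE1, lower in ET_D9 (4.14% of all genes). Whether these globin calls hold under the alternatives is not reported here. Among the 20 regulators GATA2, which acts in progenitors before GATA1 and is likewise named after its values were seen, was called, at 14.9 to 45.1 CPM in the 5 ET_D7 livers and at most 0.0654 CPM in the 3 ET_D9 livers. It was close to the pattern of the 333 genes that were on or off by liver library, and what it shares with them was not tested. Its call for the slope was lost without fetus 9 (adjusted p = 0.0958) or 10 (adjusted p = 0.105) and with transfer group as a covariate (adjusted p = 0.801). GATA2 is also a mast cell and basophil marker. The summed markers of that list were 15.1 to 60.4 CPM in ET_D7 and 1.39 to 1.57 CPM in ET_D9 livers, but GATA2 is part of both sums. GATA2 made up most of the sum in every ET_D7 liver, with 23.1 of 23.1 CPM in fetus 3 and 14.9 of 15.1 CPM in fetus 4. Its share was smallest in fetus 5. The difference between these sums is therefore largely that of GATA2 itself and is no separate measure of these cells.

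In the heart the spline called 0 of the 10 genes, at an adjusted or an unadjusted p (0.0% and 7.99% of 16250 genes, with edgeR). The spline of DESeq2 also called 0, in a fit that called 3.29% of all genes. The fitted slopes of all 10 were below 0, with a median of −0.05 against −0.01 over all genes, but those of 7 genes changed sign under at least 1 alternative, that of SLC4A1 to as much as 0.34. By this slope 1 of the 10 was called (6.77% of all genes), the same 1 that passed an unadjusted p under 0.05 (29.1% of all genes). It was ANK1, at −0.13 per 0.1 g on the log2 scale (standard error 0.034, adjusted p = 0.0478), which ran from 30.7 to 40.6 CPM in the 5 ET_D7 hearts and from 26.5 to 31.1 CPM in the 4 ET_D9 hearts. The call was lost with another scaling of library sizes, with transfer group in the model, and without any 1 of fetuses 1, 2, 4, 5, 6, 8, 9 and 10 (adjusted p = 0.0545 to 0.354), and it stayed without fetus 3. Endothelial markers rose along the same hearts, with 3 of 7 called, PECAM1 by 0.29 per 0.1 g (standard error 0.058, from 33.2 CPM in fetus 1 to 95.1 CPM in fetus 10), and the share of mitochondrial counts was 45.1% in fetus 1 and 17.1% in fetus 10. Their part in the slope of ANK1 was not tested. The difference between its liver and heart slopes was 0.17 (standard error 0.063, adjusted p = 0.103), and none of the 10 slopes differed between liver and heart (8.15% of all genes did) or between liver and gonads (5.14%) in edgeR's test of the difference, with 1 of 10 and 0 of 10 at an unadjusted p under 0.05 (23.1% and 16.8% of all genes).

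In the gonads 0 of the 10 genes were called by the spline or the slope (0.0% of 17809 genes in both cases). At an unadjusted p under 0.05 the spline gave 3 of 10 (TFRC, p = 0.0128, SLC4A1, p = 0.0232, and EPB42, p = 0.0445, quasi-likelihood test of edgeR), where 12.6% of all genes passed, and the slope gave 0 (5.62% of all genes). DESeq2 called 0 by the slope. Its spline called TFRC (adjusted p = 0.00197), in a fit that called 7.63% of all genes. TFRC spanned 11.9-fold in the gonads, from 6.32 CPM in fetus 1 through 22.8 CPM in fetus 10 to 73.8 and 75.2 CPM in fetuses 8 and 6, with a slope of 0.08 (standard error 0.232).

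In maternal blood 9 of the 10 genes were tested, since EPOR fell below the filter of at least 10 counts in at least 4 libraries. The spline called 0 of the 9 genes (0.129% of 16284 genes) and 4 at an unadjusted p (9.77%), namely GATA1, KLF1, EPB42 and ALAS2, and DESeq2 called GATA1 and KLF1, in a fit that called 2.97% of all genes. The slope called 0 (0.0%), and DESeq2 also called 0, with 1 at an unadjusted p in edgeR (9.69% of all genes), TFRC at −0.09 (standard error 0.039). The slopes of ALAS2 (−0.55, standard error 0.289), SLC4A1 (−0.51, standard error 0.286), EPB42 (−0.40, standard error 0.225) and KLF1 (−0.27, standard error 0.130) were below 0 with wide errors, and without the dam of fetus 1 that of ALAS2 was −0.31. Between transfer groups 0 of 9 genes were called by edgeR (0.0%) or DESeq2 and 1 passed an unadjusted p in edgeR (7.6% of all genes). It was GATA1, which was 0.96 higher in ET_D9 (standard error 0.418, adjusted p = 0.636), a difference that was 0.34 without the dam of fetus 7. Her library held 54.8 CPM of GATA1, against at most 20.8 CPM in the others, together with the highest ALOX15 (1161 CPM, against at most 524 CPM) and of IL5RA, a receptor chain of eosinophils chosen after its values were seen (144 CPM, against at most 62.8 CPM). Eosinophils also use GATA1, and their part in the value was not tested. GATA2 and MS4A2, of mast cells and basophils, were at 4.82 and 4.97 CPM there, the lowest and the second lowest of the 10 dams.

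**Figure D4:**
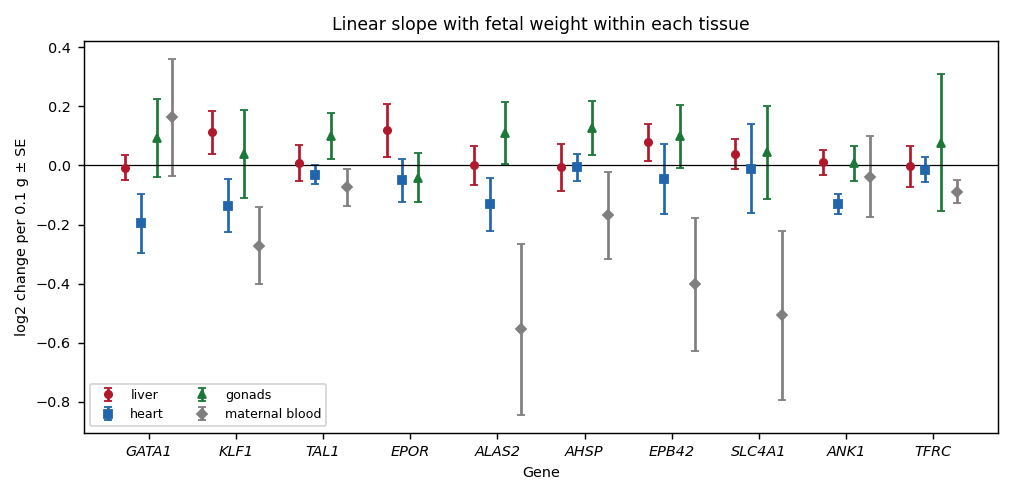
Linear slopes of the 10 genes with fetal weight, as log2 change per 0.1 g with standard errors, within liver (red circles), heart (blue squares), gonads (green triangles) and maternal blood (grey diamonds). Liver slopes lie between −0.01 and 0.12, heart slopes below 0, and the blood slopes of ALAS2, SLC4A1 and EPB42 are the lowest, with errors of 0.225 to 0.289, while EPOR in blood was not tested.

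Outside the liver, several of the genes followed the globin of the same library. The share of all genes that follow it as closely is not given here, so the counts are not shown to be particular to these genes. The relation of each gene to the globin with the most counts in the tissue (HBB, HBE1 or HBG) was computed on log2(CPM + 1) (39 relations, exact permutation tests in heart, gonads and liver and 100000 permutations in blood, two-sided, adjusted together by Benjamini-Hochberg). In maternal blood, 5 of 9 genes passed with adult HBB, which ran from 197 to 9330.2 CPM. SLC4A1 gave r = 0.966 (permutation p = 2e-05, adjusted p = 0.00078, rho = 0.939, rho permutation p = 2e-04) and ALAS2 r = 0.965 (permutation p = 5e-05, adjusted p = 0.00097, rho = 0.915, rho permutation p = 0.00054), with r = 0.947 and 0.948 when the 2 dams farthest from the median were left out. EPB42 (r = 0.902), KLF1 (r = 0.885) and AHSP (r = 0.731) also passed, AHSP not by rho (adjusted permutation p = 0.109), and its r was 0.433 without the 2 farthest dams. TAL1 (r = 0.237), GATA1 (r = 0.029) and ANK1 (r = −0.202) did not pass. After subtracting the mean of each depth class (total counts above 35000000 or not), r was 0.970 for SLC4A1 and 0.975 for ALAS2.

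In the heart, embryonic HBE1 ran from 629 to 2568 CPM, and 4 of 10 genes passed, EPB42 (r = 0.932), KLF1 (r = 0.928), ALAS2 (r = 0.924) and SLC4A1 (r = 0.860), with r of 0.844 to 0.923 without the 2 farthest fetuses and 0.899 to 0.973 with transfer group means removed. In the gonads 5 of 10 passed with HBE1, AHSP (r = 0.948), TAL1 (r = 0.948), GATA1 (r = 0.870), ALAS2 (r = 0.855) and EPB42 (r = 0.808). In the liver none of the 10 passed with HBG (r from −0.371 to 0.722 over 7 samples, highest for AHSP with exact permutation p = 0.0671). TFRC did not pass in any of the 4 tissues (r from −0.236 to 0.642), nor did ANK1 (r from −0.319 to 0.335).

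**Figure D5:**
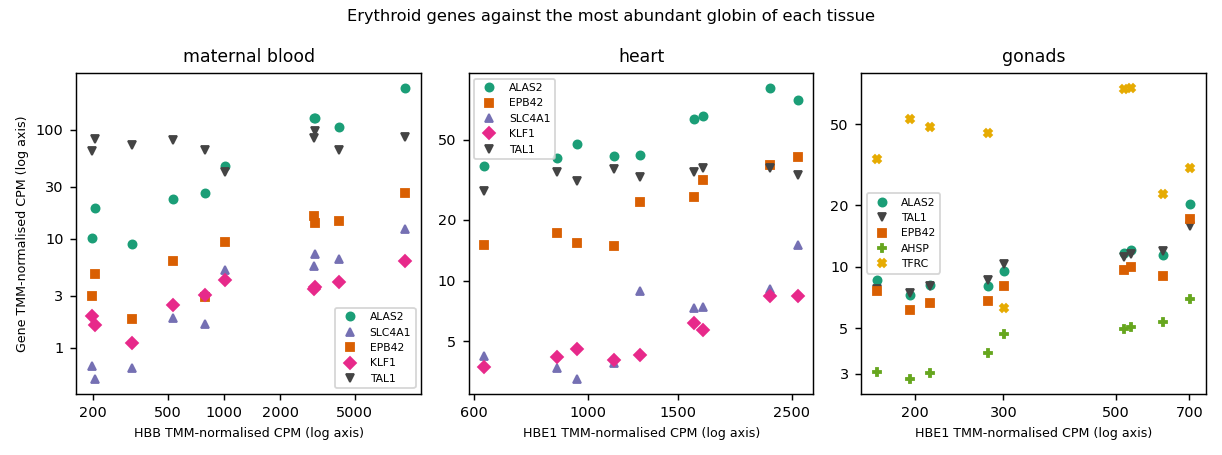
TMM-normalised CPM of 5 genes against the globin with the most counts in the tissue, 1 point per gene and library, all axes logarithmic, for 10 maternal blood libraries against HBB, 9 hearts against HBE1 and 9 gonads against HBE1. ALAS2, EPB42, SLC4A1 and KLF1 rise with the globin in blood and heart, where TAL1 stays between 40.9 and 97.7 CPM and between 28.0 and 36.3 CPM, and TFRC in the gonads does not follow HBE1.

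The genes also followed each other within tissues, over 171 pairs tested by permutation and adjusted together. The difference of a pair between tissues was not tested, and the share of all gene pairs that would pass is not given here. In the heart 6 of 45 pairs passed, among KLF1, ALAS2, GATA1, EPB42 and SLC4A1, the closest being KLF1 with ALAS2 (r = 0.980, exact permutation p = 5e-05, adjusted p = 0.00212, rho = 0.950, r = 0.978 without the 2 farthest). In the gonads 17 of 45 pairs passed, among all genes but SLC4A1, ANK1 and TFRC, the closest being ALAS2 with EPB42 (r = 0.995, rho = 0.983, exact permutation p = 5.5e-06, adjusted p = 0.00047, r = 0.984 without the 2 farthest). In maternal blood 7 of 36 pairs passed, 6 of them among KLF1, ALAS2, EPB42 and SLC4A1 and the other KLF1 with TFRC. In the liver only 2 of 45 passed, TAL1 with SLC4A1 (r = 0.939, exact permutation p = 0.00179, adjusted p = 0.0133, r = 0.823 without the 2 farthest samples, rho permutation p adjusted to 0.0523) and EPOR with ANK1 (r = 0.884, exact permutation p = 0.00794, adjusted p = 0.0431, rho permutation p adjusted to 0.175), and the median r over the 45 liver pairs was 0.178, against 0.705 in the gonads.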

How the data were processed

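Reads were trimmed (Trimmomatic), aligned to the ARS-UCD1.3 genome (STAR 2.7.0b) and assigned to genes (featureCounts of Subread 2.0.3) by the authors, who deposited raw counts of all 36 libraries in 1 table. Organ libraries came from a stranded mRNA kit and blood libraries from another stranded kit. The counting options for strand, read pairs and shared reads are not given in the sources used here. Symbols were matched by Entrez identifier to RefSeq (ARS-UCD2.0, another build, so no coordinates are given), for 31630 of the 35092 genes. The members and gene lists were chosen with earlier results of these data known. All 10 genes are named whatever they show, and from each list the 4 most abundant in the liver and those against its direction; a gene outside this rule is said to be chosen after its values were seen. Some genes that this rule names are not reported here.

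Organs were compared with edgeR 4.0.16 (R 4.3.3, TMM, glmQLFit and glmQLFTest) over genes with at least 1 count in the 26 organ libraries, and weight and transfer group within each tissue over genes that reached 10 counts in 4 or more libraries, with Benjamini-Hochberg adjustment over all genes. The code was tested on simulated counts. Each library of a tissue is labelled as coming from another fetus or dam, so p-values are meant to measure the spread between animals. The near-identical pair of liver libraries differed by less than the sampling noise. Liver fits that kept the pair as separate animals therefore do not measure that spread for the pair. Organs of 1 fetus are paired by the animal number in the labels; deviations from the organ means had a median correlation of 0.027 over 23 same-fetus pairs, against −0.005 over 202 other pairs, and the reported fits have no fetus term. The limit given for EPOR at 0 counts covers counting error only. The standard errors come from the quasi-likelihood fits, which include the spread between libraries. DESeq2 1.42.0 and the other alternatives are given in the closing section.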

Additional observations from a re-analysis of the deposited data

Results flagged for a closer look

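Dixon's 95% criterion lets through about 1 in 20 for independent values with a normal spread. The genes here were read from the same libraries and on the CPM scale, so the count below is not set against that rate. Of 40 combinations of gene and tissue, 10 had a highest library that lay farther from the rest than this criterion allows. Of these, 5 were the gonad library of fetus 7, at 20.3 CPM of ALAS2 (next 12.1 CPM), 17.2 CPM of EPB42 (next 9.95 CPM), 10.1 CPM of SLC4A1 (next 5.03 CPM), 28.2 CPM of ANK1 (next 22.6 CPM) and 1.47 CPM of KLF1 (next 0.837 CPM). The same library had the highest globin sum of the gonads, as given above, and what it shares with them was not tested.

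In maternal blood the dam of fetus 1 stood out for ALAS2 at 241 CPM (next 128 CPM) and AHSP at 4.16 CPM (next 1.96 CPM), beside the highest HBB of the 10 dams. The dam of fetus 7 stood out for GATA1 at 54.8 CPM (next 20.8 CPM). The dam of fetus 6 stood out for EPOR at 0.101 CPM, which is 4 counts where all others had 0. Any value above 0 would meet the criterion there, so this one is set aside, which leaves 9 of 39 combinations. In the heart, fetus 3 stood out for SLC4A1 at 15.1 CPM (next 9.06 CPM).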

How the results depend on the processing

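The 10 calls against the heart and the 10 against the gonads held under other size factors (RLE), without mitochondrial genes, with a filter of at least 10 counts in at least 4 libraries, with DESeq2, without each fetus in turn, with a log2 fold change above 1, and with the liver libraries of fetuses 1 and 2 counted once, an alternative chosen after seeing the data. With the replicate block (fetus as a term) all 10 calls also remained in each organ comparison, heart against gonads included. The block was fitted in the organ comparisons only, since within a tissue each fetus has 1 library. The heart and gonad difference of AHSP was 0.34 to 0.56 and that of SLC4A1 0.37 to 0.98 over the fetuses left out.

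The weight results moved most. In the liver the spline called 1 gene (EPOR) with DESeq2, and the slope of EPOR was −0.43 with transfer group as a covariate. In the heart the slope called 0 genes with RLE, with all genes of at least 1 count and with transfer group as a covariate, and 0 to 1 over the fetuses left out, with ANK1 between −0.14 and −0.12. In the gonads the spline called 1 gene with DESeq2 (TFRC) and 0 to 4 over the fetuses left out, 4 without fetus 8 (EPB42, SLC4A1, TFRC and ALAS2), where 8.49% of all genes were called, and 1 without fetus 7 (TFRC), where 5.13% were. In blood the spline called 2 with DESeq2 and 0 to 1 over the dams left out, GATA1 without that of fetus 8, where 0.829% of all genes were called. Depth class as a covariate in blood, added after seeing the data, changed no call. Of the member slopes and transfer differences not named singly, none was called under any alternative, and 6 of 7 liver slopes and 7 of 9 heart slopes took the other sign under at least 1. With 8 livers, 3 of them ET_D9, a transfer group difference of 0.53 for EPOR, about 2 standard errors, did not pass. The cause of these changes was not tested.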
